A study of Arabidopsis thaliana with 6 samples.

Results

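The genes described here are 42 nuclear loci of Arabidopsis thaliana that encode enzymes of carbon fixation and of photorespiration, with the CP12 linker proteins, Rubisco activase and a plastid transporter. They were chosen by locus code from a list of such proteins, which does not hold every gene of these enzymes. The rule uses no measured value, but it was written with earlier results of these data known. The list holds 23 genes of the Calvin cycle and 19 genes of photorespiration, out of 28259 loci in the tables. RNA-seq gave their levels in entire 10-day-old wild-type seedlings of the Columbia ecotype (Col-0), raised in short days of 10 h light and 14 h dark. The seedlings stood overnight in water under light, and the water was then exchanged for 3-OH-C10:0 or for dimethyl sulfoxide (DMSO). They were harvested 8 h later, which gave 3 libraries of 3-OH-C10:0 seedlings and 3 libraries of DMSO seedlings. 3-OH-C10:0 is 3-hydroxydecanoic acid, a bacterial fatty acid that Arabidopsis senses through the receptor kinase LORE, and DMSO is its solvent. The dose is given as 5 microM in one label and as 5 mM in another, and the dose is therefore not settled here.

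In the Calvin cycle, Rubisco joins carbon dioxide to ribulose bisphosphate (RuBP), the resulting phosphoglycerate (PGA) is reduced to triose phosphate, and most of the triose phosphate is used to make RuBP again. Rubisco also accepts oxygen, and photorespiration then salvages the phosphoglycolate that this makes, through enzymes of the plastid, the peroxisome and the mitochondrion. In leaves these proteins are among the most abundant of the cell, and their nuclear genes are known to respond to light and to sugar.

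Library totals ranged from 18064723 to 27131500 estimated counts with 3-OH-C10:0 and from 19390988 to 21000782 with DMSO, so that 3 counts stood for 0.111 to 0.166 CPM (counts per 1e6 counts). All 42 members passed the filter on low counts, and the lowest count of any member in any library was 102. No label says that the replicates came from separate cultures, so that p-values speak of the spread among these libraries alone. CPM values carry edgeR's TMM scaling and compare libraries for 1 gene. FPKM values, which are also scaled to transcript length, compare genes. Log2 fold changes are 3-OH-C10:0 over DMSO, with their standard errors, and each adjusted p of a gene comes from edgeR's quasi-likelihood test, adjusted after Benjamini and Hochberg for 19768 genes. A gene is said to have fallen or risen when that adjusted p was under 0.05. Values in single libraries are given in the order of replicates 1, 2 and 3.

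Of the 42 members, 39 fell, 2 rose and 1, the glycerate kinase gene GLYK, did not pass the test. The fallen members made up 92.9% of the list, against 35.8% of all tested genes, of which 35.6% rose and 71.4% changed in either direction. The median log2 fold change of the members was -1.70, against -0.04 over all tested genes. The treatment thus went with lower transcript levels at nearly every step that the list covers, with the step of GLYK as an exception. For Rubisco the list holds genes of the small subunit and of the activase, and not the large subunit. The fold was at least 2 for 35 of the fallen members, against 14.7% of all tested genes that fell that far, and at least 4 for 12 of them, against 1.67%. All 3 libraries with 3-OH-C10:0 lay below all 3 DMSO libraries for 38 members, against 38.2% of all tested genes, and above them for 2 members, against 37.7%. The groups overlapped for the other 2, SHM2 and GLYK.

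Both pathways moved down, with medians close to each other. Of the 23 Calvin cycle genes 21 fell and 2 rose, with a median log2 fold change of -1.71. Of the 19 photorespiration genes 18 fell and none rose, with a median of -1.68. The 2 genes that rose were TKL2, the lesser plastid transketolase gene, and CP12-3, a small linker protein gene. The fall reached 4-fold in 10 Calvin cycle genes and in 2 photorespiration genes, against 1.67% of all tested genes. Over all tested genes 35.8% fell and 35.6% rose.

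**Figure D1:**
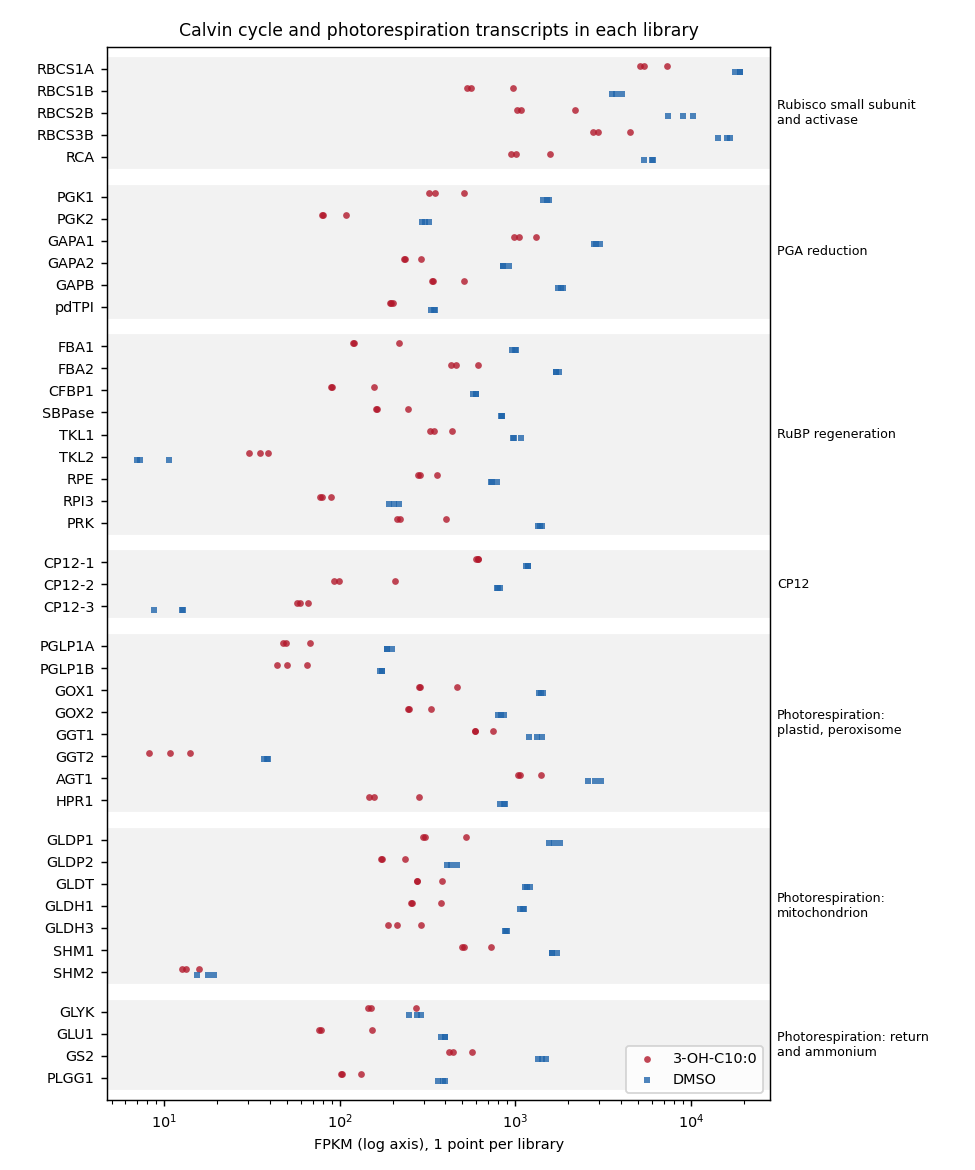
FPKM (log axis) of the 42 genes, grouped by role, with 1 point per library (circles, 3-OH-C10:0; squares, DMSO; 3 libraries each). Circles lie left of the squares in all genes except TKL2 and CP12-3, where they lie right of them, and SHM2 and GLYK, where the groups overlap.

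The members together held 2.80%, 2.73% and 4.06% of all counts in the 3-OH-C10:0 libraries, against 11.7%, 11.7% and 11.1% in the DMSO libraries. The means were 3.20% ± 0.749 with 3-OH-C10:0 and 11.5% ± 0.363 with DMSO (SD, n = 3 each), and the groups were separate (two-sided exact permutation p = 0.1, as small as 3 libraries a group permit). The Calvin cycle genes accounted for 2.14% ± 0.505 of the counts with 3-OH-C10:0 and 8.27% ± 0.348 with DMSO, and the photorespiration genes for 1.06% ± 0.244 with 3-OH-C10:0 and 3.24% ± 0.0530 with DMSO (exact permutation p = 0.1 for each). The 4 RBCS genes, which encode the small subunit of Rubisco, alone took 1.12% ± 0.290 of the counts with 3-OH-C10:0 and 4.52% ± 0.330 with DMSO (exact permutation p = 0.1).

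The library of replicate 3 with 3-OH-C10:0 stood apart in these genes, and whether its depth had a part in this was not tested. It was also the deepest of all libraries, at 27131500 estimated counts, against 20382242 and 18064723 for 3-OH-C10:0 replicates 1 and 2. It was the highest of the 3 treated libraries for 39 of the 42 members, against 37.9% of all tested genes and 51.9% of the tested genes that fell. The ratio of this library to the mean of replicates 1 and 2 had a median of 1.41 over the members, against 1.001 over all tested genes and 1.07 over those that fell. The median log2 ratio of the members to their DMSO mean was -1.83, -1.91 and -1.39 in 3-OH-C10:0 replicates 1, 2 and 3. Without replicate 3 the median log2 fold change of the members was -1.87.

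Whole seedlings mix organs, and in bulk RNA fewer cells of a type and less RNA per cell cannot be told apart. The green shoot markers moved with the members: all 5, which are themselves photosynthesis genes, fell, and their summed level was 3432, 3334 and 5372 CPM in the 3-OH-C10:0 libraries, against 16462, 17974 and 16318 CPM in the DMSO libraries. Of 10 root markers 5 fell and 1 (SCR) rose, and their sum, most of it from PYK10, was 756, 972 and 697 CPM with 3-OH-C10:0, against 1442, 1350.1 and 1453 CPM with DMSO. Of 6 guard cell markers 4 fell, with a sum of 44.2, 40.7 and 39.8 CPM with 3-OH-C10:0, against 79.1, 70.1 and 65.2 CPM with DMSO. Of 6 vascular markers 4 could be tested, 2 rose (SUC2 and APL) and 1 (ATHB-8) fell. The sum over the 6, most of it from SUC2, was 383, 359.9 and 354 CPM with 3-OH-C10:0, against 235, 246 and 248 CPM with DMSO. SUC2 alone averaged 299 CPM with 3-OH-C10:0 and 177 CPM with DMSO. VND6 and VND7, markers of xylem vessels, were too low to be tested, and VND6 was at 0 in treated replicate 1. These marker counts stand against the 35.8% of all tested genes that fell and the 35.6% that rose. No other marker was at 0 in any library, and the part of cell composition in the members' change was not tested.

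Promoters are shown for 5 members, because 4 of them share a motif and fell at least 4-fold and the fifth, CP12-3, is the member with the highest fold change. They were chosen after their values were seen. Each sequence is the 250 bases before the annotated gene start in RefSeq TAIR10.1, 5′ to 3′ on the strand of the gene. The windows are chr5:15382072-15382321 (minus strand) for RBCS2B, chr1:11531949-11532198 (plus) for PRK, chr3:20016587-20016836 (plus) for CFBP1, chr4:15931423-15931672 (minus) for GLDP1 and chr1:28727956-28728205 (plus) for CP12-3. None of these windows holds bases of another annotated gene. Capitals mark the G-box CACGTG, bound by bZIP and bHLH factors, the I-box GATAAG, known from light-responsive RBCS promoters, the W-box core TTGAC, bound by WRKY factors, and the evening element core AATATCT, bound by clock factors. Each motif was searched on both strands, and in PRK the G-box and the W-box core share a base.
RBCS2B: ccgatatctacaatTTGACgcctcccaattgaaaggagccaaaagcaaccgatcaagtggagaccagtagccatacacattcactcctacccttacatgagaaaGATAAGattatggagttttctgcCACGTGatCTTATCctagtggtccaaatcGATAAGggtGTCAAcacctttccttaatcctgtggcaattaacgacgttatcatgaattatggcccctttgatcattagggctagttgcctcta
PRK: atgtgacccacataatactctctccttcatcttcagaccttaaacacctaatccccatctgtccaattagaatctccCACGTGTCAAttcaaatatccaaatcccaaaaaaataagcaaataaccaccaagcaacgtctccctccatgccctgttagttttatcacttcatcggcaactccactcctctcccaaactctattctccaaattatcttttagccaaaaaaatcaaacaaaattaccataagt
CFBP1: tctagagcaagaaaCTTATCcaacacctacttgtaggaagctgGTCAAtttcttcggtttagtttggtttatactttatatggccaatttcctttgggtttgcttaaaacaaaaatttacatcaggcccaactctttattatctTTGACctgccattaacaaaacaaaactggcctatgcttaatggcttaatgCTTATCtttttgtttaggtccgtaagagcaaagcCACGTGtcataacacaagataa
GLDP1: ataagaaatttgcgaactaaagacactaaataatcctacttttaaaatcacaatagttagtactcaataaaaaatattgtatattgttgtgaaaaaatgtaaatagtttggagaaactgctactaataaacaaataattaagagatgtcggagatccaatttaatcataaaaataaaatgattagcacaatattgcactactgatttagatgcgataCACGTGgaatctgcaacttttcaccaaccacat
CP12-3: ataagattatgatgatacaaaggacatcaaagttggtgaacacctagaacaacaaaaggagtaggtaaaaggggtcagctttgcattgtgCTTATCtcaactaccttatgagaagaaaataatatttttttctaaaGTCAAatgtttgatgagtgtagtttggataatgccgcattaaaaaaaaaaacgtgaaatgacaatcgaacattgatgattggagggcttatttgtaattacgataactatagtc

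The G-box began 123 bases before the start in RBCS2B, 173 in PRK, 22 in CFBP1 and 33 in GLDP1. In RBCS2B it lay among 3 I-boxes, at 146, 115 and 94 bases. CP12-3 had an I-box and a W-box core and no G-box. Over all members the G-box was found in 7 of 42 windows (16.7%), against 6.49% of 27443 windows of the same length. Of these 7 genes 6 fell (RBCS2B, CFBP1, PRK, GLDP1, GGT1 and GGT2) and TKL2 rose, where 92.9% of all members and 35.8% of all tested genes fell. RBCS1B, RBCS3B, RCA, GAPB, FBA1, SBPase, CP12-2 and HPR1 also fell at least 4-fold and had no G-box in their windows. The shares of the other motifs lay near those of all windows. The I-box was in 6 members (14.3%), against 12.3% of all windows. The W-box core was in 18 (42.9%), against 44.9%, and the evening element core in 3 (7.14%), against 10.0%. Of the 42 windows 17 reach into another annotated gene, those of the G-box genes TKL2 (223 of 250 bases) and GGT2 (241 of 250 bases) among them. A match in such a window is a run of letters and was not tied to binding.

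All 5 genes of the Rubisco group fell, against 35.8% of all tested genes. Their median log2 fold change was -2.23, the lowest of the role groups. Their summed level was 12661 ± 3370 FPKM with 3-OH-C10:0 and 52820 ± 3344 FPKM with DMSO, 4.17-fold lower (SD, n = 3 each; exact permutation p = 0.1). RBCS1A (AT1G67090, chr1:25048158-25049667) stood at 5780.1, 5333 and 7762 CPM with 3-OH-C10:0, against 18696, 19417 and 17668 CPM with DMSO (log2 fold change -1.56 ± 0.185, adjusted p = 2.2e-05). Its libraries were closely grouped under DMSO, and replicate 3 was the highest of the treated ones. RBCS1B (AT5G38430, chr5:15383167-15385320) stood at 469, 432 and 811 CPM with 3-OH-C10:0, against 3135, 2994 and 2755 CPM with DMSO (log2 fold change -2.38 ± 0.236, adjusted p = 1.7e-05). RBCS2B (AT5G38420, chr5:15380907-15382071), whose promoter with its G-box is printed above, stood at 965, 895 and 1967 CPM with 3-OH-C10:0, against 8518, 7724 and 6177 CPM with DMSO (log2 fold change -2.55 ± 0.321, adjusted p = 0.00015). Its treated replicate 3 was the highest of the treated libraries, yet below every DMSO library. RBCS3B (AT5G38410, chr5:15376988-15378642) stood at 3028, 2767 and 4599.9 CPM with 3-OH-C10:0, against 15729.7, 15601 and 13497 CPM with DMSO (log2 fold change -2.11 ± 0.213, adjusted p = 6.4e-06). RCA (AT2G39730, chr2:16570746-16573692), the ATPase that clears inhibitory sugar phosphates from Rubisco, stood at 1800.0, 1874 and 3011 CPM with 3-OH-C10:0, against 9611, 11131 and 10606 CPM with DMSO (log2 fold change -2.23 ± 0.213, adjusted p = 4.3e-06). In none of the 5 genes did the groups overlap, where 38.2% of all tested genes had every treated library below every DMSO library.

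The small subunit genes had unequal fold changes. Of the summed RBCS FPKM, RBCS1A held 52.4% ± 3.15 with 3-OH-C10:0 and 39.8% ± 1.75 with DMSO (mean ± SD of the share, n = 3 each, as in all shares here). RBCS2B held 12.1% ± 2.26 with 3-OH-C10:0 and 18.9% ± 1.67 with DMSO. RBCS3B held 29.7% ± 0.393 with 3-OH-C10:0 and 33.2% ± 0.195 with DMSO, and RBCS1B 5.87% ± 0.512 with 3-OH-C10:0 and 8.03% ± 0.207 with DMSO. RBCS1A thus took the larger share with 3-OH-C10:0 and its paralogs the smaller, with separate groups for each of the 4 genes. RBCS1B, RBCS2B and RBCS3B lie side by side on chromosome 5, and their coding sequences are 96.7% to 97.3% identical, with an unbroken identical run of 230 bases between RBCS1B and RBCS3B. The split of reads among these 3 is therefore uncertain, whereas RBCS1A is 90.4% to 90.6% identical to them.

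All 6 genes of PGA reduction fell, against 35.8% of all tested genes, with a median log2 fold change of -1.70. Their summed level was 2444 ± 429 FPKM with 3-OH-C10:0 and 7738 ± 194 FPKM with DMSO (exact permutation p = 0.1, n = 3 each). The largest change was in GAPB (AT1G42970), the B subunit gene of plastid glyceraldehyde-3-phosphate dehydrogenase, at 626, 604 and 945 CPM with 3-OH-C10:0, against 3192, 3183 and 2977 CPM with DMSO (log2 fold change -2.10 ± 0.1796, adjusted p = 1.8e-06). The genes of the other subunit had fold changes nearer to 0. GAPA1 (AT3G26650) stood at 1681, 1538 and 2106 CPM with 3-OH-C10:0, against 4143, 4630.1 and 4305 CPM with DMSO (log2 fold change -1.30 ± 0.151, adjusted p = 2.0e-05), and GAPA2 (AT1G12900) at 369, 353 and 453 CPM with 3-OH-C10:0, against 1232, 1362 and 1231 CPM with DMSO (log2 fold change -1.70 ± 0.127, adjusted p = 6.5e-07). Of the summed GAPA FPKM, GAPA1 held 81.5% ± 0.497 with 3-OH-C10:0 and 76.9% ± 0.365 with DMSO. The plastid phosphoglycerate kinase genes PGK1 (AT3G12780) and PGK2 (AT1G56190) fell by 1.85 and 1.70 on the log2 scale. The smallest fall of the group was that of pdTPI (AT2G21170), plastid triose phosphate isomerase, at 277, 269 and 285 CPM with 3-OH-C10:0, against 456, 469 and 434 CPM with DMSO (log2 fold change -0.71 ± 0.0903, adjusted p = 3.8e-05). Its 3 treated libraries lay close to each other, and replicate 3 did not stand apart as it did in GAPB.

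In the regeneration of RuBP, 8 of 9 genes fell and TKL2 rose, where 35.8% of all tested genes fell and 35.6% rose. The median log2 fold change was -1.71. The summed level was 2023 ± 454 FPKM with 3-OH-C10:0 and 7507 ± 115 FPKM with DMSO (exact permutation p = 0.1, n = 3 each). The lowest fold change of all 42 members was that of FBA1 (AT2G21330, chr2:9128122-9130619), a plastid fructose-bisphosphate aldolase, at 195, 188 and 349 CPM with 3-OH-C10:0, against 1493, 1549 and 1429 CPM with DMSO (log2 fold change -2.61 ± 0.241, adjusted p = 1.7e-05). FBA2 (AT4G38970, chr4:18163496-18166008), the more abundant aldolase gene per length, stood at 719, 658 and 971 CPM with 3-OH-C10:0, against 2576, 2570.0 and 2509 CPM with DMSO (log2 fold change -1.71 ± 0.156, adjusted p = 3.1e-06). Of the summed FPKM of this pair, FBA1 held 22.9% ± 2.70 with 3-OH-C10:0 and 36.3% ± 0.674 with DMSO.

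The enzymes that commit sugar phosphates to regeneration were among those that fell at least 4-fold. CFBP1 (AT3G54050), the plastid fructose-1,6-bisphosphatase, stood at 132, 131 and 231 CPM with 3-OH-C10:0, against 817, 844 and 794 CPM with DMSO (log2 fold change -2.31 ± 0.223, adjusted p = 2.6e-05). SBPase (AT3G55800), sedoheptulose-1,7-bisphosphatase, stood at 279, 269 and 423 CPM with 3-OH-C10:0, against 1341, 1385 and 1322 CPM with DMSO (log2 fold change -2.06 ± 0.172, adjusted p = 1.9e-06). PRK (AT1G32060), phosphoribulokinase, which makes RuBP, stood at 342, 349 and 651 CPM with 3-OH-C10:0, against 2009, 2203 and 2086 CPM with DMSO (log2 fold change -2.23 ± 0.251, adjusted p = 6.1e-05). For each of these the highest treated library was below the lowest DMSO library by more than the spread within either group. At the pentose phosphate steps, RPE (AT5G61410), ribulose-phosphate epimerase, fell by 1.21 on the log2 scale, and RPI3 (AT3G04790), ribose-phosphate isomerase, by 1.23.

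The plastid transketolase genes moved in opposite directions. TKL1 (AT3G60750, chr3:22453668-22457458) stood at 1010.3, 942 and 1278 CPM with 3-OH-C10:0, against 2953, 2743 and 2680.0 CPM with DMSO (log2 fold change -1.37 ± 0.144, adjusted p = 8.6e-06). TKL2 (AT2G45290, chr2:18672497-18676484) stood at 94.9, 103 and 82.4 CPM with 3-OH-C10:0, against 26.4, 18.1 and 18.2 CPM with DMSO (log2 fold change 2.16 ± 0.157, adjusted p = 2.7e-06). All 3 libraries with 3-OH-C10:0 were thus below the DMSO libraries for TKL1 and above them for TKL2. TKL1 remained the more abundant gene, at 368 ± 57.4 FPKM with 3-OH-C10:0 and 1012 ± 61.6 FPKM with DMSO. TKL2 averaged 35.0 ± 4.28 FPKM with 3-OH-C10:0 and 8.29 ± 1.99 FPKM with DMSO. Of their sum, TKL2 made up 8.86% ± 2.08 with 3-OH-C10:0 and 0.807% ± 0.140 with DMSO.

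CP12 proteins bind glyceraldehyde-3-phosphate dehydrogenase and PRK into an inactive complex in the dark. Of the 3 CP12 genes 2 fell and 1 rose, where 35.8% of all tested genes fell and 35.6% rose. CP12-2 (AT3G62410, chr3:23090944-23091580) stood at 63.6, 58.8 and 133 CPM with 3-OH-C10:0, against 492, 485 and 478 CPM with DMSO (log2 fold change -2.51 ± 0.333, adjusted p = 0.00061). CP12-1 (AT2G47400, chr2:19446730-19447642) stood at 362, 363 and 373 CPM with 3-OH-C10:0, against 667, 685 and 652 CPM with DMSO (log2 fold change -0.87 ± 0.0930, adjusted p = 1.0e-05). CP12-3 (AT1G76560, chr1:28728206-28728976) stood at 35.7, 39.9 and 37.0 CPM with 3-OH-C10:0, against 5.05, 7.55 and 7.37 CPM with DMSO (log2 fold change 2.49 ± 0.137, adjusted p = 7.1e-08), the highest fold change of the 42 members. CP12-1 and CP12-3 were even among the treated libraries, while CP12-2 in replicate 3 was well above its level in replicates 1 and 2.
Of the summed CP12 FPKM, CP12-1 held 76.2% ± 5.47 with 3-OH-C10:0 and 59.1% ± 0.499 with DMSO. CP12-2 held 16.2% ± 6.25 with 3-OH-C10:0 and 40.3% ± 0.571 with DMSO, and CP12-3 held 7.61% ± 0.877 with 3-OH-C10:0 and 0.574% ± 0.122 with DMSO. The total over the 3 genes was 801 ± 68.7 FPKM with 3-OH-C10:0 and 1987 ± 29.4 FPKM with DMSO (exact permutation p = 0.1, n = 3 each).

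**Figure D2:**
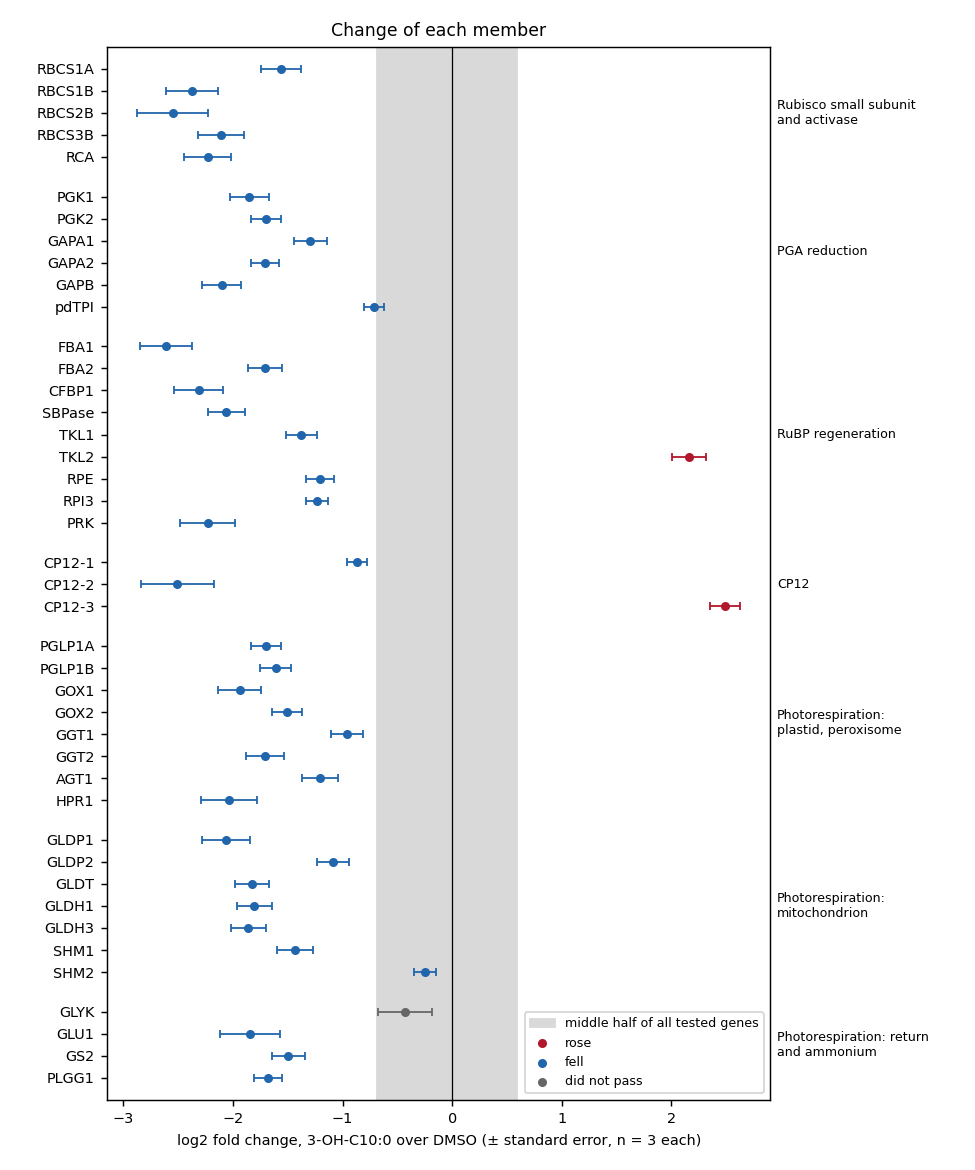
Log2 fold change (3-OH-C10:0 over DMSO, bars ± standard error, 3 libraries each) of the 42 genes by role, coloured by the outcome of the test, over a grey band from the lower to the upper quartile of all tested genes (-0.68 to 0.60). Of the members, 39 lie left of 0 as fallen genes, and TKL2 at 2.16 and CP12-3 at 2.49 lie far right of it.

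All 8 photorespiration genes of the plastid and peroxisome steps fell, against 35.8% of all tested genes. Their median log2 fold change was -1.65. Their summed level was 2744 ± 546 FPKM with 3-OH-C10:0 and 7659 ± 428 FPKM with DMSO (exact permutation p = 0.1, n = 3 each). Phosphoglycolate phosphatase opens the pathway, and its genes PGLP1A (AT5G36700) and PGLP1B (AT5G36790) fell by 1.70 and 1.61. Their coding sequences are identical over 1089 bases, so that the split of reads between them cannot be read. Glycolate oxidase, which releases hydrogen peroxide in the peroxisome, is encoded by GOX1 (AT3G14420) and GOX2 (AT3G14415). GOX1 stood at 453, 433 and 731 CPM with 3-OH-C10:0, against 2048, 2149 and 2006 CPM with DMSO (log2 fold change -1.94 ± 0.196, adjusted p = 1.0e-05), and GOX2 at 412, 409 and 554 CPM with 3-OH-C10:0, against 1234, 1376 and 1295 CPM with DMSO (log2 fold change -1.51 ± 0.140, adjusted p = 3.5e-06). Of the pair's FPKM, GOX1 held 55.2% ± 2.89 with 3-OH-C10:0 and 62.9% ± 0.879 with DMSO, a lower share in every treated library than in any DMSO library.

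The peroxisomal aminotransferase genes and the reductase gene after them fell too. GGT1 (AT1G23310), glutamate:glyoxylate aminotransferase, stood at 1268, 1250.1 and 1621 CPM with 3-OH-C10:0, against 2412, 2954 and 2683 CPM with DMSO (log2 fold change -0.96 ± 0.146, adjusted p = 0.00015). Its low-level paralog GGT2 (AT1G70580) stood at 15.3, 19.5 and 26.1 CPM with 3-OH-C10:0, against 63.9, 69.7 and 66.3 CPM with DMSO (log2 fold change -1.71 ± 0.170, adjusted p = 3.1e-05). Of the pair's FPKM, GGT1 held 98.3% ± 0.248 with 3-OH-C10:0 and 97.2% ± 0.159 with DMSO. AGT1 (AT2G13360), serine:glyoxylate aminotransferase, stood at 1649, 1668 and 2236 CPM with 3-OH-C10:0, against 3857, 4726 and 4228 CPM with DMSO (log2 fold change -1.21 ± 0.160, adjusted p = 5.4e-05). HPR1 (AT1G68010), which reduces hydroxypyruvate to glycerate, stood at 263, 243 and 478 CPM with 3-OH-C10:0, against 1276, 1394 and 1371 CPM with DMSO (log2 fold change -2.04 ± 0.254, adjusted p = 0.00015) and was 1 of the 2 photorespiration genes that fell at least 4-fold.

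In the mitochondrion all 7 genes fell, against 35.8% of all tested genes, with a median log2 fold change of -1.81. Their summed level was 1999 ± 478 FPKM with 3-OH-C10:0 and 6936 ± 75.3 FPKM with DMSO (exact permutation p = 0.1, n = 3 each). These genes encode glycine decarboxylase, which releases carbon dioxide and ammonium from glycine, and serine hydroxymethyltransferase, which makes serine. GLDP1 (AT4G33010, chr4:15926652-15931422), a gene of the decarboxylating P protein whose promoter is printed above, stood at 1076, 1084 and 1890.0 CPM with 3-OH-C10:0, against 5983, 5351 and 5601 CPM with DMSO (log2 fold change -2.06 ± 0.222, adjusted p = 1.5e-05). GLDP2 (AT2G26080, chr2:11109003-11114291), the second P protein gene, stood at 622, 614 and 854 CPM with 3-OH-C10:0, against 1441, 1427 and 1564 CPM with DMSO (log2 fold change -1.08 ± 0.145, adjusted p = 5.8e-05). Of their summed FPKM, GLDP1 held 65.5% ± 3.04 with 3-OH-C10:0 and 79.4% ± 1.23 with DMSO. The T protein gene GLDT (AT1G11860) fell by 1.83, and the H protein genes GLDH1 (AT2G35370) and GLDH3 (AT1G32470) fell by 1.81 and 1.86, a narrow range. The share of GLDH1 in the H protein pair overlapped between the groups, at 56.3% ± 1.55 with 3-OH-C10:0 and 55.3% ± 0.719 with DMSO.

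SHM1 (AT4G37930), the leaf mitochondrial serine hydroxymethyltransferase, stood at 1005, 958 and 1433 CPM with 3-OH-C10:0, against 2957, 3267 and 2954 CPM with DMSO (log2 fold change -1.43 ± 0.167, adjusted p = 2.0e-05). SHM2 (AT5G26780) stood at 27.7, 31.8 and 26.2 CPM with 3-OH-C10:0, against 36.8, 30.5 and 34.1 CPM with DMSO (log2 fold change -0.24 ± 0.101, adjusted p = 0.0499), and its groups overlapped, since treated replicate 2 lay above DMSO replicate 2. The call for SHM2 was at the threshold, with an adjusted p of 0.072 under DESeq2 size factors, 0.066 with a replicate block, 0.056 without the filter on low counts and 0.16 by DESeq2's Wald test. It was lost without treated replicate 1 (adjusted p = 0.14 by edgeR), treated replicate 3 (0.15), DMSO replicate 1 (0.16) or DMSO replicate 3 (0.1). Of the pair's FPKM, SHM1 held 97.6% ± 0.681 with 3-OH-C10:0 and 99.0% ± 0.150 with DMSO.

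Of the 4 genes that return glycerate and refix ammonium, 3 fell and GLYK did not pass, where 35.8% of all tested genes fell. GLYK (AT1G80380), glycerate kinase, the last enzyme of the pathway, stood at 268, 254 and 485 CPM with 3-OH-C10:0, against 409, 495 and 455 CPM with DMSO (log2 fold change -0.43 ± 0.248, adjusted p = 0.16). Its treated replicate 3 lay within the DMSO range and the other 2 treated libraries below it. Without treated replicate 3 GLYK passed, with a log2 fold change of -0.79 and an adjusted p of 2.8e-05. GLU1 (AT5G04140), the ferredoxin-dependent glutamate synthase of leaves, stood at 432, 409 and 836 CPM with 3-OH-C10:0, against 2023, 1985 and 2023 CPM with DMSO (log2 fold change -1.85 ± 0.270, adjusted p = 0.0004). GS2 (AT5G35630), plastid glutamine synthetase, which recaptures the released ammonium, stood at 829, 770.1 and 1075 CPM with 3-OH-C10:0, against 2470.2, 2705 and 2362 CPM with DMSO (log2 fold change -1.49 ± 0.150, adjusted p = 6.1e-06). PLGG1 (AT1G32080), the plastid transporter that exports glycolate and takes glycerate back in, stood at 194, 185 and 248 CPM with 3-OH-C10:0, against 671, 711 and 630.1 CPM with DMSO (log2 fold change -1.68 ± 0.128, adjusted p = 7.4e-07). The groups were separate for GLU1, GS2 and PLGG1, where 38.2% of all tested genes had every treated library below every DMSO library. The group's summed level was 878 ± 212 FPKM with 3-OH-C10:0 and 2463 ± 94.1 FPKM with DMSO (exact permutation p = 0.1, n = 3 each).

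**Figure D3:**
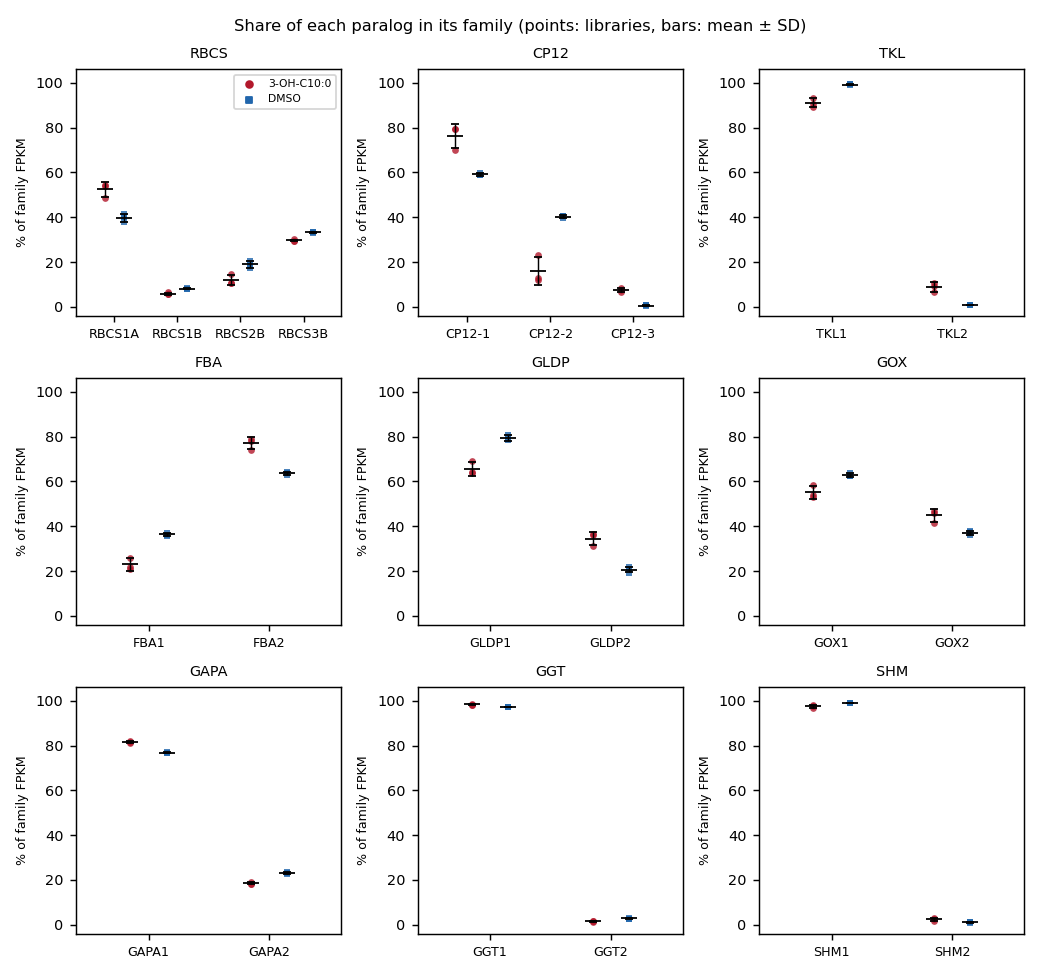
Share of each paralog in the summed FPKM of its family, in percent, for 9 of the 12 families (points, single libraries; bars, mean ± SD; circles, 3-OH-C10:0; squares, DMSO; 3 libraries each). With 3-OH-C10:0 RBCS1A, CP12-1, CP12-3, TKL2, FBA2 and GLDP2 hold larger shares than with DMSO, and RBCS2B, CP12-2, FBA1 and GLDP1 hold smaller ones.

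Across the 12 families with more than 1 gene among the members, the share of the first-named gene was higher in all 3 treated libraries in 4 families (RBCS, GAPA, CP12 and GGT) and lower in 6 (PGK, FBA, TKL, GOX, GLDP and SHM). It overlapped between the groups in 2 (PGLP1 and GLDH). The smallest exact permutation p with 3 libraries a group is 0.1, which is 0.12 after Benjamini-Hochberg adjustment over the 12 families, so none of these shifts could pass 0.05. The shift was 17.1 percentage points for CP12-1 and 12.6 for RBCS1A, and it was -13.4 for FBA1 and -13.8 for GLDP1. The coding sequences of these pairs, other than those of RBCS, PGLP1 and GOX, were 62.8% to 88.2% identical, and GOX1 and GOX2 were 92.4% identical. For 10 of the 42 members the annotated gene overlaps another gene (RCA, PGK1, GAPA1, CFBP1, RPI3, PRK, GOX1, GLDP1, GLDH3 and GLU1), and since no source used here states the library strand, reads of the partners cannot be told apart.

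Of 10 genes for Rubisco assembly factors, plastid chaperonins and a methyltransferase, 9 fell and 1 rose, where 35.8% of all tested genes fell, with a median log2 fold change of -1.65. CPN60A1, a plastid chaperonin subunit, fell by 1.55, and LSMT-L, a methyltransferase named for the large subunit, by 1.73. RBCX2, another assembly chaperone, rose and stood at 141, 132 and 111 CPM with 3-OH-C10:0, against 61.0, 70.8 and 63.8 CPM with DMSO (log2 fold change 0.97 ± 0.104, adjusted p = 9.9e-06). The large subunit itself is encoded in the plastid by rbcL, which stood at 5.30, 3.76 and 4.29 CPM with 3-OH-C10:0, against 6.09, 4.91 and 3.84 CPM with DMSO (log2 fold change -0.15 ± 0.202, adjusted p = 0.52). The groups overlapped for rbcL, which had 67 counts in its lowest library. Transcripts of plastid and mitochondrial genes held very few counts in these libraries. With DMSO the members took 11.510% of all counts and 11.511% of nuclear counts. The rbcL values can therefore not be read as its level in the plastid or as a lack of change.

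Of 6 further plastid genes of the Calvin cycle, 4 fell, 1 rose and 1 did not pass, where 35.8% of all tested genes fell and 35.6% rose, with a median of -1.41. CBBY, which degrades an inhibitor of Rubisco, fell by 2.29, CFBP2, another fructose-bisphosphatase, by 1.51, TPT, the triose phosphate exporter, by 1.43, and RPI4, a further ribose-phosphate isomerase, by 1.39. FBA3, another plastid aldolase, rose by 0.51 on the log2 scale, while rbcL, described above, did not pass.

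Of 23 further genes with a photorespiratory or related role, 12 fell, 8 rose and 3 did not pass, with a median of -0.36. The fallen genes were 52.2% of this list, against 35.8% of all tested genes, of which 35.6% rose. The L protein of glycine decarboxylase, which mitochondria also use in other dehydrogenase complexes, showed both directions. Its gene mtLPD1 stood at 240.4, 221 and 305 CPM with 3-OH-C10:0, against 826, 849.6 and 761 CPM with DMSO (log2 fold change -1.67 ± 0.132, adjusted p = 1.0e-06). The second gene, mtLPD2, stood at 158, 156 and 146 CPM with 3-OH-C10:0, against 66.1, 62.3 and 57.3 CPM with DMSO (log2 fold change 1.31 ± 0.0845, adjusted p = 2.1e-07). The plastid dicarboxylate transporters DiT1 and DiT2.2 fell by 0.98 and 1.07. DiT2.1, at a mean of 66.4 FPKM with DMSO against 22.5 FPKM for DiT2.2, fell by 0.39. SHM3, a plastid serine hydroxymethyltransferase, fell by 1.03. SHM7, a further gene of that family, rose and stood at 205, 209 and 161 CPM with 3-OH-C10:0, against 47.9, 33.0 and 38.8 CPM with DMSO (log2 fold change 2.27 ± 0.154, adjusted p = 1.2e-06). SHM4, the cytosolic enzyme, did not pass, at 177, 185 and 156 CPM with 3-OH-C10:0, against 177, 121 and 134 CPM with DMSO (log2 fold change 0.27 ± 0.138, adjusted p = 0.11).

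Of 3 lesser genes of the glycolate oxidase family, 2 rose and 1 fell, where 35.6% of all tested genes rose and 35.8% fell. GOX3 stood at 11.6, 11.8 and 9.95 CPM with 3-OH-C10:0, against 5.50, 5.15 and 5.37 CPM with DMSO (log2 fold change 1.06 ± 0.123, adjusted p = 2.0e-05), HAOX1, a hydroxyacid oxidase gene, rose by 1.16, and its paralog HAOX2 fell by 0.91. The lesser hydroxypyruvate reductase genes both fell, HPR2 by 0.86 and HPR3, which had only a few CPM, by 1.05. PGLP2, the cytosolic phosphoglycolate phosphatase, did not pass, with a log2 fold change of -0.19 ± 0.0981 and an adjusted p of 0.1. Chosen after its value was seen, like HAOX2, PMDH2, a peroxisomal malate dehydrogenase that supplies HPR1 with NADH, stood at 225, 208 and 389 CPM with 3-OH-C10:0, against 1111, 1216 and 1102 CPM with DMSO (log2 fold change -2.06 ± 0.234, adjusted p = 7.1e-05). PMDH1, the other peroxisomal malate dehydrogenase gene, also chosen after its value was seen, rose and stood at 92.5, 90.0 and 79.6 CPM with 3-OH-C10:0, against 57.0, 59.8 and 58.7 CPM with DMSO (log2 fold change 0.58 ± 0.0823, adjusted p = 9.1e-05). CAT2, the leaf catalase that removes the peroxide of glycolate oxidase and was also chosen after its value was seen, fell by 0.63.

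Cytosolic enzymes of the same reactions, which serve glycolysis, sucrose synthesis and the pentose phosphate pathway, changed in both directions. Of 14 such genes 4 fell, 8 rose and 2 did not pass, with a median log2 fold change of 0.42. The 4 fallen genes were 28.6% of this list, against 35.8% of all tested genes, and the 8 of 14 that rose stand against 35.6% of all tested genes. GAPC1, a cytosolic glyceraldehyde-3-phosphate dehydrogenase, stood at 909, 893 and 702 CPM with 3-OH-C10:0, against 402, 342 and 355 CPM with DMSO (log2 fold change 1.19 ± 0.128, adjusted p = 1.1e-05). PGK3, the cytosolic phosphoglycerate kinase, stood at 508, 510.4 and 382 CPM with 3-OH-C10:0, against 234, 176 and 185 CPM with DMSO (log2 fold change 1.23 ± 0.147, adjusted p = 2.7e-05). Both lay above the DMSO range in every treated library, where their plastid counterparts GAPA1, GAPB, PGK1 and PGK2 lay below it. GAPC2, another cytosolic gene of that dehydrogenase, at a mean of 486 FPKM with DMSO against 245 FPKM for GAPC1, did not pass. It stood at 621, 576 and 566 CPM with 3-OH-C10:0, against 714, 673 and 650.3 CPM with DMSO (log2 fold change -0.21, adjusted p = 0.083). Its treated libraries all lay below the DMSO range. The cytosolic triose phosphate isomerase gene cTPI did not pass either (log2 fold change -0.04, adjusted p = 0.69). RPI1 rose by 1.77 and RPE2 by 0.81. The 4 that fell were the aldolases FBA5 and FBA7, the isomerase RPI2 and cFBPase, the fructose-bisphosphatase of sucrose synthesis, with falls of 3.12, 1.54, 1.13 and 1.45. FBA5 stood at 73.1, 62.3 and 202 CPM with 3-OH-C10:0, against 962, 1020.0 and 969.9 CPM with DMSO, so its treated replicate 3 lay well above the other 2, and without that library the log2 fold change was -3.86.

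Of 20 light-harvesting genes, which bind chlorophyll in the antennae of both photosystems, 17 fell, none rose and 3 did not pass, where 35.8% of all tested genes fell and 35.6% rose, with a median log2 fold change of -1.45. LHCB6, LHCA3 and LHCB5 fell by 1.60, 1.73 and 1.76.

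**Figure D4:**
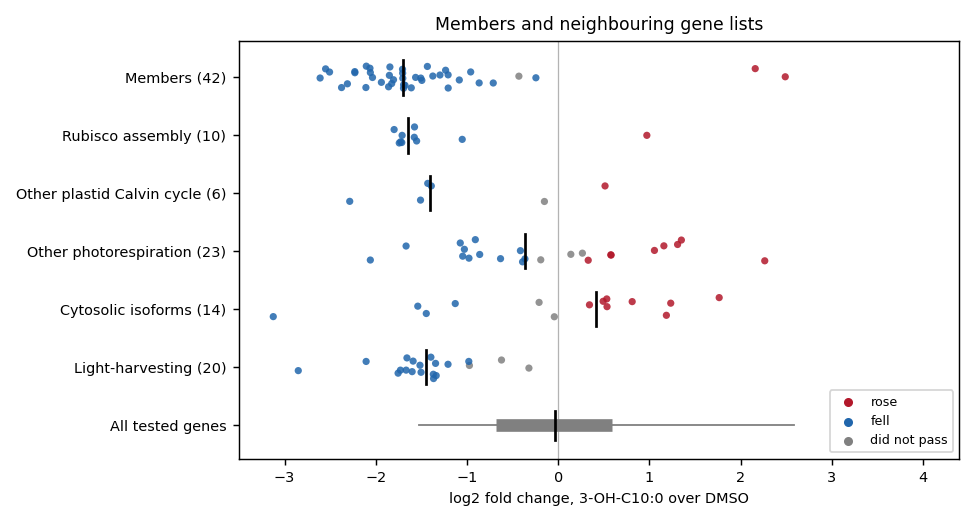
Log2 fold change (3-OH-C10:0 over DMSO) of each gene in the members and in 5 further lists (points; colour, outcome of the test; vertical line, median of the list), with all tested genes as a box from the lower to the upper quartile and a line from the 5th to the 95th percentile (-1.53 to 2.59). The members, the Rubisco assembly genes and the light-harvesting genes lie mostly left of -1, and the cytosolic isoforms lie mostly right of 0, at a median of 0.42.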

How the data were processed

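RNA-seq tables of 6 libraries were used, 3 of 3-OH-C10:0 and 3 of DMSO seedlings, grouped by their labels. Per the submitters' processing notes the build was TAIR10 and the tools were RSEM, StringTie 1.3.1, HISAT2 2.2.4, Bowtie2 2.2.8 and fastp 0.18.0. What each tool did, the read length and the strand were not given in the sources used here. For every locus the authors deposited an estimated count, unnormalised per the file headers. Between 3.46% and 3.85% of these values per library were not whole, so they were rounded here. The authors' FPKM values, per kilobase and scaled to depth, were taken unchanged from the deposited tables.

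Genes were kept by filterByExpr of edgeR 4.0.16 (minimum count 10), libraries were scaled by TMM, and the robust quasi-likelihood F test compared 3-OH-C10:0 with DMSO, two-sided, without a replicate block, in R 4.3.3. Benjamini-Hochberg adjustment covered the 19768 genes tested, with a threshold of 0.05. The common biological coefficient of variation was 11.3%. The steps were also run on simulated data with few changed genes, as many up as down. That run does not test the scaling in data where 71.4% of tested genes were called. Single values per library were compared by exact permutation tests in scipy 1.17.1. Floors of 3 counts cover counting error only. Alternatives used DESeq2 1.42.0 and limma 3.58.1. Gene positions, coding sequences (aligned with biopython 1.88) and promoters are those of RefSeq TAIR10.1, in which all 42 loci were found.

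The members and all gene lists were chosen with earlier results of these data known. All 42 members could be named, and from each further list up to 4 genes that fell and 4 that rose with the smallest p, besides rbcL, SHM4, PGLP2, GOX3, HPR2, HPR3 and GAPC1. GAPC2, cTPI, DiT2.1 and the genes of the thioredoxin list were named after their values were seen. Some genes that this rule took are not reported here.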

Additional observations from a re-analysis of the deposited data

How the results depend on the processing

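Over 14 alternatives (scaling, filter, tool, FPKM with limma, replicate block and leaving out each library), 40 of the 42 members kept their direction and their side of the threshold in every one. Of the 588 pairs of a member and an alternative, 577 kept both and none reversed. The number of members that fell ranged from 38 to 40, the number that rose was 2 throughout, and the median log2 fold change lay between -1.87 and -1.60. SHM2 lost its call in 8 alternatives, with adjusted p up to 0.16 (DESeq2's Wald test). GLYK passed with limma on log2(FPKM + 1) and on log2(FPKM + 0.1), at adjusted p of 0.043 and 0.045, and without 3-OH-C10:0 replicate 3. For rbcL the log2 fold change was 0.02 without DMSO replicate 1, so its sign reversed, and -0.317 without DMSO replicate 3. The cause was not tested. The shares of counts, sums and paralog shares kept their direction throughout. With the replicate number as a block, 38 members fell and 2 rose, at a median of -1.71. Deviations of same-numbered libraries correlated at 0.026, -0.016 and 0.099, and those of other pairs at -0.102 to 0.064. These values show no sign of pairing by number, but a weak pairing could be missed with 3 libraries a group. With 3 libraries a group, exact tests of single values cannot go below p = 0.1.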

Other observations

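Several Calvin cycle enzymes are switched on in light by plastid thioredoxins, which reduce disulfides of fructose-bisphosphatase, sedoheptulose-bisphosphatase, PRK and CP12. A list of 15 genes of plastid thioredoxins, their reductases and 2-Cys peroxiredoxins was added, and its genes were picked for naming, after the data had been seen. Of these 15, 13 fell and 2 rose, with a median log2 fold change of -0.92, where 35.8% of all tested genes fell. TRXF1, a thioredoxin f gene, stood at 78.2, 77.7 and 121 CPM with 3-OH-C10:0, against 384, 389 and 333 CPM with DMSO (adjusted p = 9.3e-06 by edgeR's quasi-likelihood test). TRXF2 and TRXM1 fell by 1.73 and 1.76. NTRC, the NADPH-dependent reductase fused to a thioredoxin, fell by 0.92, and the peroxiredoxin genes 2CPA and 2CPB fell too, 2CPB by 1.63. The 2 that rose were TRXM3, at 46.8, 45.2 and 39.7 CPM with 3-OH-C10:0, against 19.2, 17.6 and 17.1 CPM with DMSO, and TRXY1, with a log2 fold change of 1.12. In each of these named genes the groups did not overlap. The same held for many genes: all treated libraries lay below all DMSO libraries in 38.2% of tested genes and above them in 37.7%. Their paralogs TRXM4 and TRXY2 fell, TRXM4 by 0.61.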
